A study of Mus musculus with 4 samples.

Results

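Cholesterol and fatty acid synthesis was followed through 39 genes, taken by symbol from the deposited table of 57186 genes counted by RNA sequencing. They comprised 18 enzymes of the sterol pathway, 5 genes of sterol sensing and transport, and 16 genes of fatty acid synthesis, elongation, desaturation and activation. Every symbol matched 1 protein-coding gene, and all 39 genes were among the 20950 that passed the filter on low counts. The study measured whole mouse uterus on gestational day 4, with 2 control libraries from wild-type mice and 2 knockout libraries from mice of genotype Prss29Cre/Cre;Pgrf/f (Pgr gecKO). The knockout mice carry Cre at both copies of Prss29, a protease gene of the uterine glands, and floxed copies of Pgr, the progesterone receptor gene. The labels give the controls as wild type, so Cre, the altered Prss29 locus and the Pgr deletion cannot be told apart. The labels do not say whether each library came from a separate animal or a pool, and p-values therefore measure only the spread between these libraries, which may be technical in part.

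Cholesterol is built from acetyl-CoA through mevalonate, isoprenoid units, squalene and lanosterol. When sterol in the endoplasmic reticulum is low, SCAP escorts the membrane-bound factors SREBP1 and SREBP2 (genes Srebf1 and Srebf2) to the Golgi for cleavage, and the released fragments activate the enzymes of both branches, while INSIG proteins hold the complex back. Fatty acids are built from the same acetyl-CoA by acetyl-CoA carboxylase and fatty acid synthase, then elongated, desaturated and activated. In the uterus these lipids serve membranes, secretions and, through arachidonic acid, prostaglandins.

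The promoters of the members carry letters that transcription factors of this pathway are known to bind, and those upstream of 6 members are shown because 5 of these 6 genes (Insig1, Idi1, Cyp51, Hsd17b7 and Msmo1) had large differences between replicates and Hmgcs1 held the classic sterol motif. Each sequence covers the 220 bases before the gene start, 5′ to 3′ on the gene's strand, from RefSeq on GRCm38.p6, which is not the GRCm39 build of the counts. Capitals mark 3 motifs searched on both strands: the sterol regulatory element TCACNCCAC that SREBPs bind, the CCAAT box of NF-Y (ATTGG on the other strand), and the E-box CACGTG, which is its own reverse complement. No letters are shared between marked motifs in these windows. The positions are chr13:119690131-119690350 on the plus strand for Hmgcs1, chr5:28071192-28071411 on the plus strand for Insig1 and chr13:8885386-8885605 on the plus strand for Idi1. They are chr5:4104698-4104917 for Cyp51, chr1:169969206-169969425 for Hsd17b7 and chr8:64733579-64733798 for Msmo1, all on the minus strand.
Hmgcs1: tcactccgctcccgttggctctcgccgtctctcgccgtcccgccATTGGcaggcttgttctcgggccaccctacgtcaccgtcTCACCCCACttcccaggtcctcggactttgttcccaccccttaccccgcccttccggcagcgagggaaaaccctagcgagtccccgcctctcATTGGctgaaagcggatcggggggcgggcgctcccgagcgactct
Insig1: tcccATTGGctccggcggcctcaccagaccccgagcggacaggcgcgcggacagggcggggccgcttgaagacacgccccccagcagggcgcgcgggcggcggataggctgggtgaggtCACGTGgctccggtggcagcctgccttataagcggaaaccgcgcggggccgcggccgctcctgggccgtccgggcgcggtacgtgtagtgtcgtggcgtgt
Idi1: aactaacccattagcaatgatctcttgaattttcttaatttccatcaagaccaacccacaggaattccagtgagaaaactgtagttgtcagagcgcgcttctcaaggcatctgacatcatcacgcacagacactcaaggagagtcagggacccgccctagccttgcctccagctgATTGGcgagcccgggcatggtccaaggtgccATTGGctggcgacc
Cyp51: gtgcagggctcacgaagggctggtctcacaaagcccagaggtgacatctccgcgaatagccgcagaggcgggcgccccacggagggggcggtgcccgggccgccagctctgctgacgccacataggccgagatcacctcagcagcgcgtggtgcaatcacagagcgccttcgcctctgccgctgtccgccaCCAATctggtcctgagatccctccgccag
Hsd17b7: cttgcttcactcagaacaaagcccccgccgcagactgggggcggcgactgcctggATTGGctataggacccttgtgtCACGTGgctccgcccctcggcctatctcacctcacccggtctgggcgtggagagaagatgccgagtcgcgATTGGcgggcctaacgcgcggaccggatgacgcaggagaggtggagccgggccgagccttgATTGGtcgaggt
Msmo1: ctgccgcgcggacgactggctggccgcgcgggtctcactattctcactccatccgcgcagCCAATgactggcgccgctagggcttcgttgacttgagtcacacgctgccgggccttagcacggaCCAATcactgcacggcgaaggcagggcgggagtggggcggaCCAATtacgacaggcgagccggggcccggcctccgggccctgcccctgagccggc

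In Hmgcs1 the element TCACCCCAC lay 137 bases before the gene start, between CCAAT boxes at 176 and 45 bases. Hsd17b7 held 3 CCAAT boxes and an E-box, and Msmo1 held 3 CCAAT boxes. Over the windows of 250 bases before to 50 after each start, 32 of the 39 members were in the RefSeq table and 7 were not (Fdps, Fdft1, Sqle, Stard4, Scd1, Scd2 and Fads1). A CCAAT box stood in 14 of the 15 sterol enzymes with a sequence (93.3%), in 3 of 4 sensing and transport genes and in 8 of 13 fatty acid genes (61.5%). This motif stood in 41.1% of all 27025 genes listed and in 42.6% of the matched genes that averaged 5 CPM (counts divided by each library's TMM-adjusted size) or more. The exact letters TCACNCCAC were found in 1 of the 32 members (3.12%), Hmgcs1. They stood in 1.44% of all genes and in 1.3% of the matched genes that averaged 5 CPM or more. Elements that depart from these letters were not searched, so a window without a mark may still hold one. An E-box stood in 6 of the 32 members (18.8%) against 8.09% of all genes and 11.7% of the matched genes that averaged 5 CPM or more. By branch it stood in 3 of 15 sterol enzymes (20.0%), 2 of 4 sensing and transport genes and 1 of 13 fatty acid genes (7.69%). A gene with several starts counted if any of its windows held the letters, and a match is a description of the sequence, not evidence of binding.

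The 4 libraries held between 29932153 and 35149834 counts. Pgr RNA was at 140.5 and 138.6 CPM in controls 1 and 2 and at 130.1 and 146.2 CPM in knockouts 1 and 2, and this whole-gene count, to which uterine muscle and stroma are known to contribute, is no check of the floxed part in glands. Prss29 had 1524 and 190 counts in the controls and 0 in both knockouts. Differences between groups were tested with edgeR's quasi-likelihood test across all 20950 genes with Benjamini-Hochberg adjustment. It called 1 gene, 0.00477% of those tested, and that gene, Gbp2b, is not in this pathway. In a whole tissue, fewer cells of a type and less RNA per cell cannot be told apart.

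The most abundant RNAs of the pathway belonged to the fatty acid branch. Levels between genes are compared in deposited TPM (transcript levels that divide each count by gene length), as the mean of the 4 libraries. Scd2, a desaturase that makes oleic acid, stood highest at 416.5 TPM, with 351.9 and 480.4 TPM in controls 1 and 2 and 498.9 and 334.9 TPM in knockouts 1 and 2. Elovl5, an elongase of polyunsaturated fatty acids, followed at 226.4 TPM with a range over libraries of 213.6 to 240.3 TPM, which does not overlap with that of Scd2. Pmvk, the phosphomevalonate kinase, had a mean of 145.3 TPM, but its libraries ran from 47.2 to 293.1 TPM. Fasn, the fatty acid synthase gene, was at 113.4 TPM with a range of 84.3 to 142.5 TPM. The range of Pmvk thus overlapped with those of Fasn and Elovl5, and that of Fasn lay below that of Elovl5. The related desaturase gene Scd1 was at 31.0 TPM, below Scd2 in every library, although reads of these similar genes may have been split in counting.

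Sterol enzymes other than Pmvk lay between 4.59 TPM for the lanosterol synthase gene Lss and 36.2 TPM for Hmgcs1, which encodes the synthase that makes HMG-CoA. Among sensing genes, Srebf1 was at 48.0, Srebf2 at 40.4 and Scap at 35.4 TPM. The range of Srebf2 over libraries, 28.5 to 64.6 TPM, overlapped with those of both neighbours, while that of Srebf1 (44.9 to 52.7 TPM) lay above that of Scap (29.4 to 40.3 TPM). Exons of Srebf1 overlap those of Rai1 on the opposite strand, and reads of the 2 genes may not have been told apart. Insig1 was at 22.4 TPM and Stard4, a sterol carrier, at 21.3 TPM. The lowest fatty acid genes were Acacb, the mitochondrial acetyl-CoA carboxylase, at 6.02 TPM and the elongase gene Elovl7 at 4.21 TPM.

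**Figure D1:**
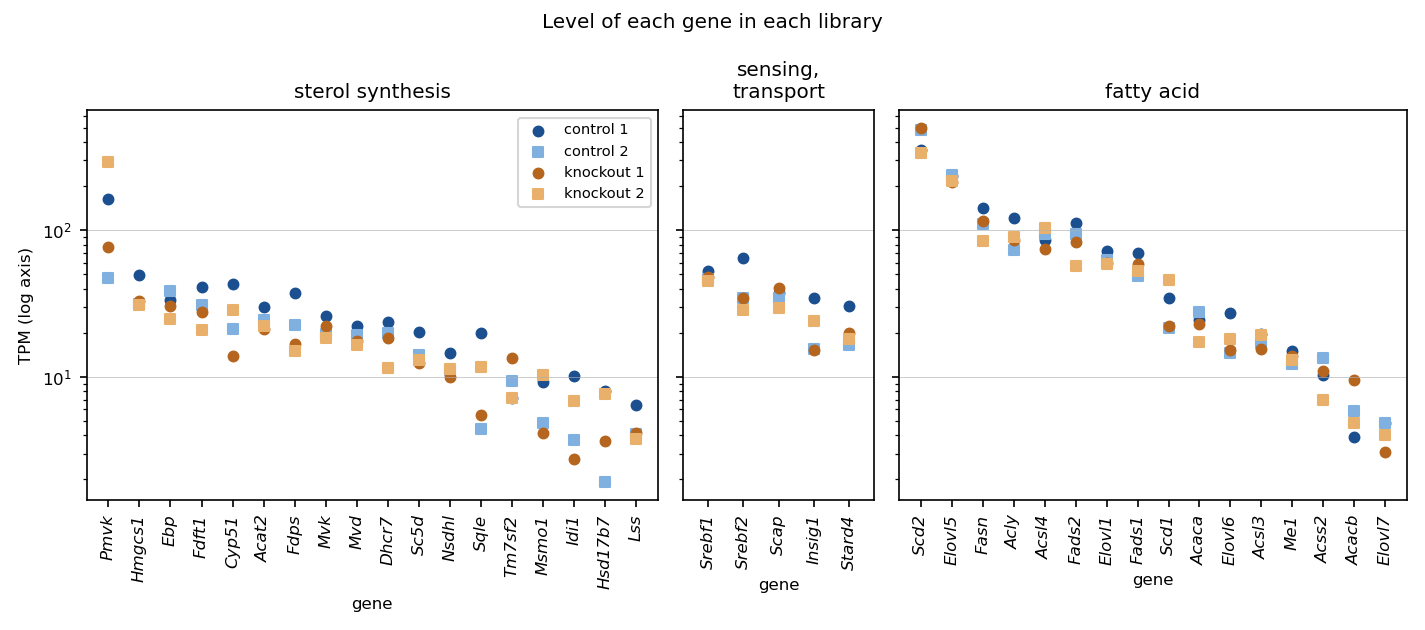
Level of each of the 39 genes in TPM (log axis) in the 4 libraries, with genes ordered by their mean within each branch (x axis). Each point is 1 library; Scd2 and Elovl5 stand highest among fatty acid genes at 416.5 and 226.4 TPM, and Pmvk, Sqle, Idi1, Msmo1 and Hsd17b7 show wide gaps between libraries.

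Between knockout and control no member passed the test adjusted over all genes, and the smallest adjusted p of a member was 0.99998 (edgeR quasi-likelihood test, Benjamini-Hochberg). At an unadjusted p under 0.05, 1 of 39 members was lower (Fdps) and 0 were higher, against 1.79% and 1.22% of all genes tested. DESeq2, limma-voom and limma on log2(TPM + 1) each called 0 members after adjustment and had 1 member at an unadjusted p under 0.05. The sterol enzymes had a median log2 fold change of −0.31, with 14 of 18 below 0, where 48.9% of all genes were below 0 and the median over all genes was 0.0063. In 5 of the 18, both knockouts lay below both controls, as in 13.1% of all genes, and in 0 of the 18 both lay above, as in 12.2% of all genes. The fatty acid genes had a median of −0.072, with 10 of 16 below 0 and 3 of 16 with both knockouts below both controls. The 5 sensing and transport genes had a median of −0.24, with 4 below 0 and 1 with both knockouts below both controls.

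The sign of these medians rested on control replicate 1, and their size changed with each library left out. Without it the sterol median was 0.060 with 7 of 18 genes below 0, the sensing and transport median 0.078 and the fatty acid median 0.0064. Without control replicate 2 they were −0.49, −0.62 and −0.20 in the same order. Without knockout replicate 1 they were −0.14, −0.13 and −0.023, and without knockout replicate 2 they were −0.42, −0.27 and −0.22.

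**Figure D2:**
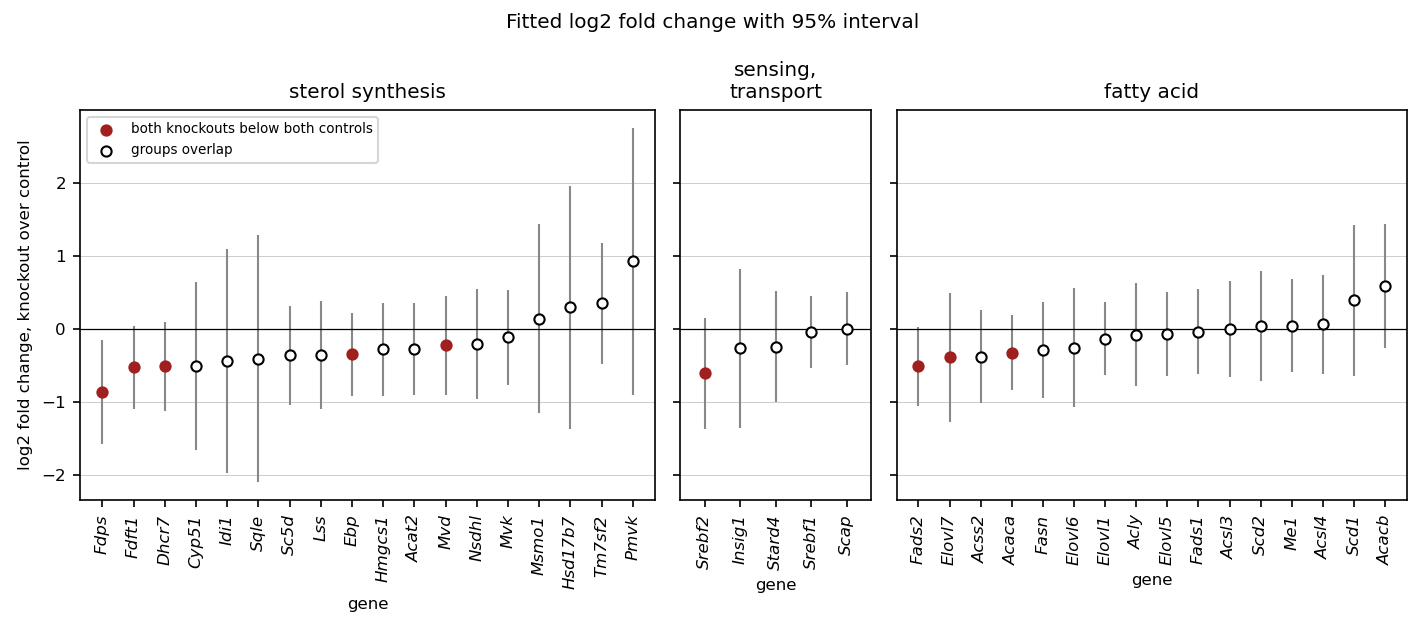
Fitted log2 fold change (knockout over control, y axis) with its 95% interval from the edgeR fit for each of the 39 genes (x axis), ordered within each branch. Filled points mark the 9 genes in which both knockouts lay below both controls, against 13.1% of all genes tested. The interval of Fdps, −1.57 to −0.15, is the only 1 of the 39 that leaves out 0, before any adjustment over genes.

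The early steps of the sterol branch make mevalonate and turn it into isoprenoid units. Hmgcs1 stood at 70.7 and 45.3 CPM in controls 1 and 2, compared with 45.8 and 49.8 CPM in knockouts 1 and 2. Control 1 was high and the other 3 libraries were close to each other, and the groups overlapped (log2 fold change −0.28, SE 0.27). Exons of Hmgcs1 overlap those of Gm48342 on the opposite strand. Acat2, the cytosolic acetoacetyl-CoA thiolase that starts the route, was at 23.98 and 19.4 CPM in controls against 16.2 and 19.7 CPM in knockouts. Its near copy Acat3 may share reads with it, so its level is uncertain. Mvk and Mvd, the mevalonate kinase and decarboxylase genes, had log2 fold changes of −0.11 and −0.22, and both 95% intervals included 0.

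Pmvk went against the other early enzymes in its fitted value. It was at 87.9 and 25.2 CPM in controls 1 and 2, compared with 39.7 and 175.3 CPM in knockouts 1 and 2. Control 1 and knockout 2 were high, the other 2 libraries were low, and the groups overlapped. The log2 fold change was 0.93 with an SE of 0.76 and a 95% interval of −0.89 to 2.75, and it was −0.51 without knockout replicate 2 and 2.11 without control replicate 1. Idi1, the isomerase of the isoprenoid unit, was at 11.2 and 4.05 CPM in controls against 2.93 and 8.34 CPM in knockouts. It had the same 2 libraries high, with a log2 fold change of −0.44 and an SE of 0.64.

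At the branch point to sterols, both enzymes were lower in each knockout than in each control. Fdps, which makes farnesyl diphosphate, stood at 49.3 and 29.4 CPM in controls 1 and 2, compared with 21.4 and 22.03 CPM in knockouts 1 and 2. The knockouts were close together and control 1 was the high library. Its log2 fold change was −0.86 with an SE of 0.30 and a 95% interval of −1.57 to −0.15 (unadjusted p = 0.024, adjusted p = 0.99998 by edgeR's quasi-likelihood test). Without control replicate 1 it was −0.42 with an unadjusted p of 0.29, and without control replicate 2 it was −1.18. Fdft1, the squalene synthase gene, was at 52.9 and 39.8 CPM in controls against 34.4 and 30.0 CPM in knockouts (a log2 fold change of −0.52, SE 0.24, unadjusted p = 0.065 in edgeR). Leaving out control 1 gave Fdft1 a log2 fold change of −0.29. Its exons overlap those of Ctsb on the opposite strand in GENCODE M21, and the strand setting of the counting is not given in the sources used here. Exons of Fdps overlap those of Gm43738 on the same strand, and Gm43738 was not among the genes counted.

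From squalene to lanosterol, Sqle showed the widest gap between replicates in the controls among the 39 members. Sqle encodes squalene epoxidase, a rate-limiting step of the late pathway. It was at 34.5 and 7.64 CPM in controls 1 and 2, compared with 9.16 and 22.7 CPM in knockouts 1 and 2. Control 1 and knockout 2 were high, control 2 and knockout 1 low, and the log2 fold change of −0.40 had an SE of 0.71 and an interval of −2.09 to 1.29. Without control replicate 1 it was 1.08, without knockout replicate 1 it was 0.11, and without control replicate 2 it was −1.12. Lss was at 21.5 and 13.7 CPM in controls against 13.4 and 14.2 CPM in knockouts, with only control 1 apart from the rest.

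Among the enzymes that turn lanosterol into cholesterol, the gap seen in Sqle was wide in some, smaller in others and absent or reversed in the rest. Cyp51, the lanosterol demethylase gene, was at 59.6 and 29.0 CPM in controls against 18.6 and 43.9 CPM in knockouts. Msmo1, the C4-methyl oxidase gene, was at 17.7 and 9.35 CPM in controls against 7.65 and 22.2 CPM in knockouts. Hsd17b7, the 3-ketosteroid reductase gene, was at 12.7 and 3.05 CPM in controls against 5.68 and 13.7 CPM in knockouts. In these 3 genes control 1 and knockout 2 were high, and the groups overlapped. Exons of Cyp51 overlap those of Akap9 on the opposite strand.

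Among the other late enzymes, Dhcr7 and Ebp were lower in each knockout than in each control. Dhcr7, which encodes the last reductase of the route through 7-dehydrocholesterol, was at 43.4 and 36.1 CPM in controls against 32.3 and 23.5 CPM in knockouts (a log2 fold change of −0.51, SE 0.26, unadjusted p = 0.087 in edgeR). Ebp, the sterol isomerase gene, was at 24.3 and 27.9 CPM in controls against 21.3 and 19.9 CPM in knockouts (a log2 fold change of −0.34, SE 0.24). Neither difference passed the test. Sc5d, the sterol desaturase gene, was at 30.6 and 21.4 CPM in controls against 18.2 and 22.3 CPM in knockouts, with groups that overlapped. Nsdhl, the C4 decarboxylase gene, was at 12.98 and 9.86 CPM in controls against 8.62 and 11.2 CPM in knockouts. Its gap had the direction of that in Sqle but was smaller, and its log2 fold change was −0.20. Tm7sf2, a sterol reductase gene, was at 9.84 and 12.9 CPM in controls against 17.96 and 11.01 CPM in knockouts, so knockout 1 was its highest library, and its exons overlap those of Vps51 on the same strand.

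Among sensing genes, Srebf2 was lower in each knockout than in each control, by a margin that rested on control 1. It stood at 145.0 and 77.0 CPM in controls 1 and 2, compared with 74.6 and 71.4 CPM in knockouts 1 and 2. Control 2 and the knockouts were close to each other (log2 fold change −0.60, SE 0.32, unadjusted p = 0.10 in edgeR), and without control replicate 1 the log2 fold change was −0.063. Srebf1 was at 92.8 and 81.8 CPM in controls against 81.4 and 88.3 CPM in knockouts, a log2 fold change of −0.041 with a 95% interval of −0.53 to 0.45. Scap was at 86.8 and 79.9 CPM in controls against 90.8 and 76.3 CPM in knockouts, with an interval of −0.50 to 0.50. Insig1 had the gap of Sqle, at 33.4 and 14.99 CPM in controls against 14.2 and 26.2 CPM in knockouts. Stard4 was at 53.2 and 28.6 CPM in controls against 33.9 and 35.3 CPM in knockouts, with control 1 high.

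In the fatty acid branch the genes that supply and build palmitate did not pass the test. Acly, which makes cytosolic acetyl-CoA from citrate, was at 199.6 and 121.5 CPM in controls against 137.9 and 166.5 CPM in knockouts (a log2 fold change of −0.077, SE 0.30). Acaca, the cytosolic acetyl-CoA carboxylase, was at 130.6 and 147.75 CPM in controls against 118.9 and 103.9 CPM in knockouts, so both knockouts lay lower (log2 fold change −0.32, SE 0.22, unadjusted p = 0.18 in edgeR). Fasn was at 487.5 and 377.7 CPM in controls against 384.9 and 322.1 CPM in knockouts, and knockout 1 lay above control 2. Its log2 fold change was −0.29 with a 95% interval of −0.95 to 0.36. Leaving out control 1 brought it to −0.082, and leaving out control 2 instead to −0.46. Acacb was at 11.8 and 17.5 CPM in controls against 27.6 and 16.3 CPM in knockouts, with knockout 1 alone high. Acss2, which makes acetyl-CoA from acetate, was at 33.0 and 42.8 CPM in controls against 33.9 and 24.5 CPM in knockouts, and its exons overlap Gss and Ggt7 on the opposite strand. Me1, the malic enzyme that supplies NADPH, ranged from 14.6 to 17.96 CPM over the 4 libraries.

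The desaturase genes differed in which libraries were high. Fads2, which takes the first desaturation step toward arachidonic acid, was at 114.9 and 96.4 CPM in controls against 82.6 and 65.8 CPM in knockouts. Both knockouts lay lower, without passing the test (log2 fold change −0.51, SE 0.23, unadjusted p = 0.061 in edgeR). Fads1, the next desaturase of that route, was at 105.3 and 72.9 CPM in controls against 85.4 and 88.5 CPM in knockouts, so the groups overlapped. Scd1 was at 52.4 and 32.7 CPM in controls against 32.9 and 78.8 CPM in knockouts, with knockout 2 highest. Its log2 fold change was 0.39 (SE 0.43), and it was −0.37 without knockout replicate 2. Scd2 was at 600.8 and 818.4 CPM in controls against 824.7 and 639.1 CPM in knockouts, the reverse order of libraries, with control 2 and knockout 1 high (log2 fold change 0.045, SE 0.32).

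Elongases and acyl-CoA synthetases had 95% intervals that included 0 in every case. Elovl6, which extends palmitate, was at 54.7 and 29.3 CPM in controls against 29.7 and 40.6 CPM in knockouts. Elovl1 and Elovl5 had log2 fold changes of −0.13 and −0.067, and Elovl1 overlaps Cdc20 on the opposite strand. Elovl7 was at 6.102 and 6.098 CPM in controls against 3.75 and 5.60 CPM in knockouts (a log2 fold change of −0.39, SE 0.37), with both knockouts lower. Acsl4, which prefers arachidonic acid, was at 146.0 and 159.7 CPM in controls against 122.9 and 196.4 CPM in knockouts. Acsl3 had a log2 fold change of 0.0013 with an interval of −0.65 to 0.66, and its exons overlap those of Utp14b on the same strand.

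Several sterol genes differed more between replicates of 1 group than in the fitted difference between groups. Control 1 was higher than control 2 in 16 of 18 sterol enzymes, where 50.0% of all genes were, with a median difference of 0.58 on the log2 CPM scale. It was at least 1 log2 unit higher in 5 of the 18 (Pmvk, Idi1, Sqle, Cyp51 and Hsd17b7), against 4.53% of all genes. Knockout 2 was higher than knockout 1 in 13 of the 18, where 48.4% of all genes were, and at least 1 log2 unit higher in 6, against 5.81% of all genes. Those 6 were the same 5 genes and Msmo1. In the fatty acid branch, control 1 was higher in 10 of 16 and never by 1 log2 unit, and knockout 2 in 10 of 16, by 1 log2 unit only in Scd1.

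Across genes, the difference between the controls and that between the knockouts went together. Over the 18 sterol enzymes, control 1 minus control 2 and knockout 2 minus knockout 1, which share no library, had a Pearson r of 0.85 and a Spearman rho of 0.76. Without Pmvk they were 0.82 and 0.74. Over the 16 fatty acid genes they were 0.57 and 0.48, and over the 5 sensing and transport genes 0.64 and 0.60. Other pathway and marker lists, described below, had r from −0.96 (adipocyte) to 0.75 (other sterol synthesis and uptake). Their rho ran from −0.93 (adipocyte) to 0.75 (luminal), so high values were not particular to the sterol enzymes. Over all genes tested r and rho were 0.44 and 0.46, and over the 13319 genes that averaged 5 CPM or more 0.51 and 0.54. A weaker relation of the same sign was thus present over the whole transcriptome. Genes of 1 library share its depth and tissue makeup and are not independent replicates, so these values are descriptions.

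**Figure D3:**
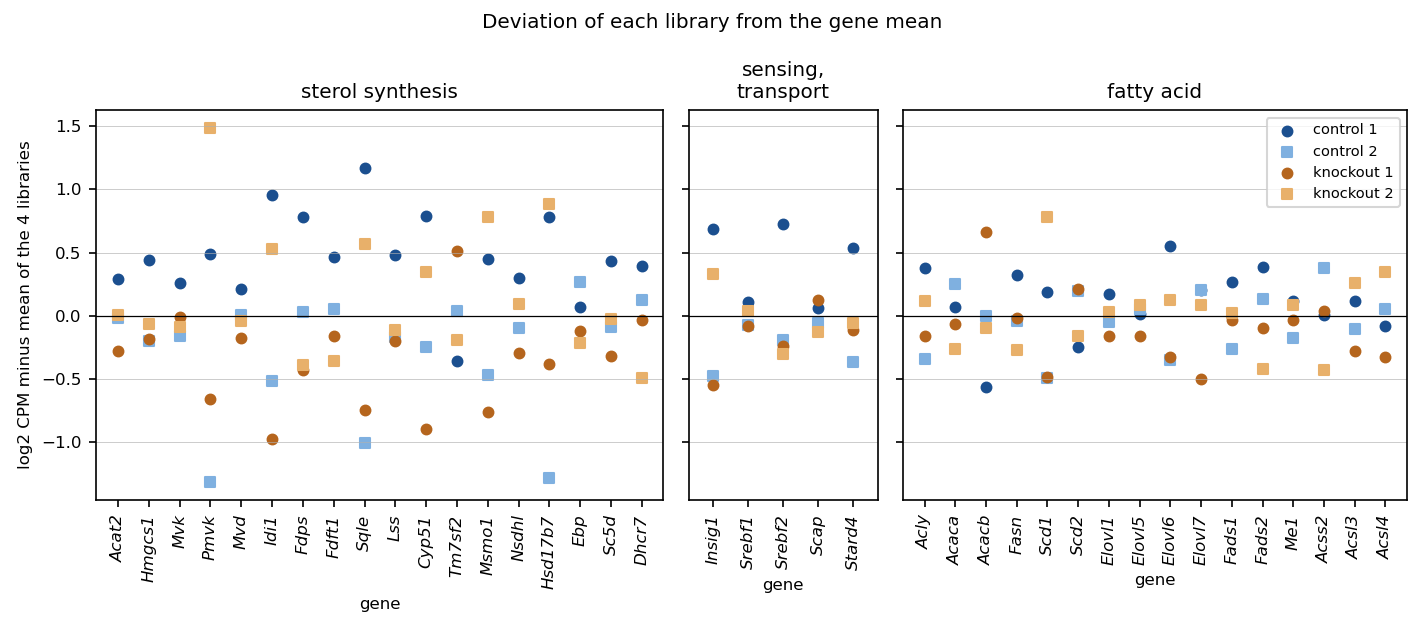
Log2 CPM of each gene in each library minus the mean of its 4 libraries (y axis), by gene (x axis) in pathway order; each point is 1 library. In Pmvk, Idi1, Sqle, Cyp51, Msmo1, Hsd17b7 and Insig1 control 1 and knockout 2 lie above 0 and control 2 and knockout 1 below it. Other members of all branches have the same signs, among them Nsdhl, Srebf1, Acly, Scd1 and Elovl6.

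**Figure D4:**
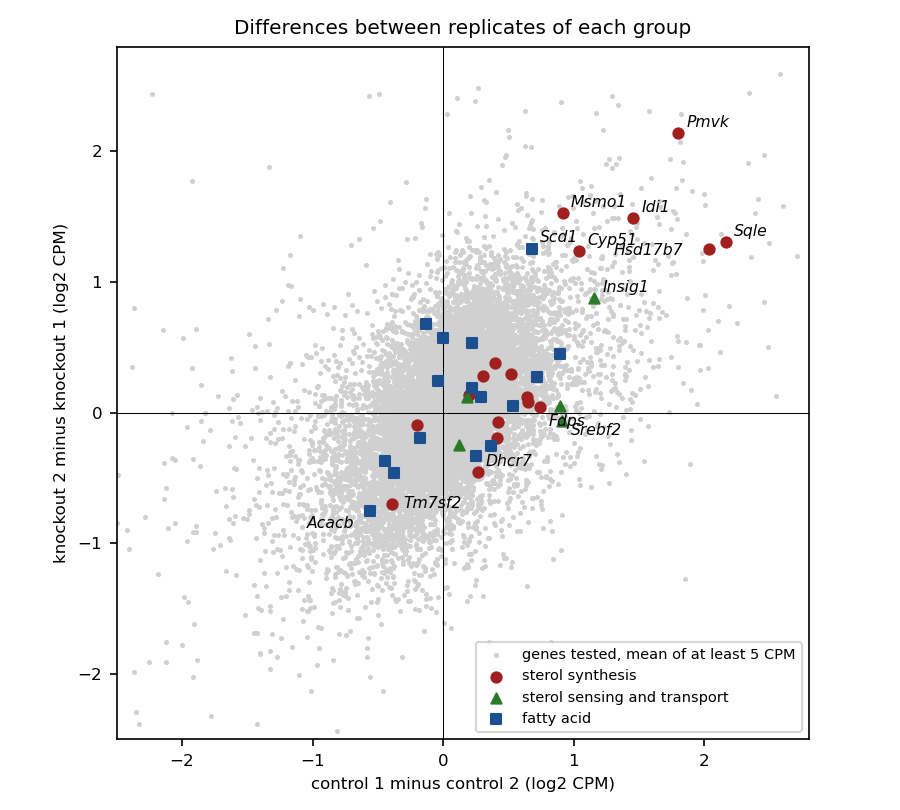
Difference between the controls (x axis) and between the knockouts (y axis) in log2 CPM; small grey points are 13245 genes that averaged 5 CPM or more (74 more lie outside the axes) and large points the 39 members by branch. Pmvk, Msmo1, Idi1, Cyp51, Hsd17b7, Sqle and Insig1 lie at the upper right, while Fdps and Srebf2 lie to the right near 0 on the y axis.

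Other genes of sterol synthesis and uptake gave no call. Of 20 genes 18 were tested and 0 passed after adjustment in edgeR. At an unadjusted p under 0.05, 1 was lower and 0 were higher, against 1.79% and 1.22% of all genes tested. The list's median log2 fold change was −0.16, and that over all genes was 0.0063. In 5 of 18 both knockouts lay below both controls, against 13.1% of all genes. In 0 of 18 both lay above, against 12.2% of all genes. The lysosomal sterol export gene Npc1 and the esterification gene Soat1 lay lower in both knockouts, with log2 fold changes of −0.39 (SE 0.22) and −0.28 (SE 0.23). Npc2 and Mbtps1, a lysosomal sterol carrier and the first protease of SREBP cleavage, were the most abundant of the list at 134.5 and 71.8 TPM and had log2 fold changes of 0.14 and 0.010.

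Genes of sterol efflux and of LXR, the receptor that senses sterol excess, had small fitted differences except at very low counts. Of 12 genes 11 were tested and 0 passed after adjustment in edgeR. At an unadjusted p under 0.05, 1 was lower and 0 were higher, against 1.79% and 1.22% of all genes tested. The median log2 fold change was 0.073, and that over all genes was 0.0063. Control 1 was higher than control 2 in 3 of the 11, against 50.0% of all genes. Knockout 2 was higher than knockout 1 in 3 of the 11, against 48.4% of all genes. The gene at an unadjusted p under 0.05 was Abcg5, an exporter gene at 0.317 and 0.370 CPM in controls against 0.0907 and 0.0713 CPM in knockouts, where the floor of 3 counts was 0.0907 and 0.107 CPM. Abca1, the cholesterol exporter gene, and Mylip, a ubiquitin ligase gene induced by LXR, had log2 fold changes of 0.28 (SE 0.27) and 0.26 (SE 0.21). Apoe and Cyp27a1, a lipoprotein component and a sterol hydroxylase, were the most abundant at 996.7 and 150.7 TPM.

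Further fatty acid and triglyceride genes also gave no call. Of 28 genes 27 were tested and 0 passed after adjustment in edgeR. At an unadjusted p under 0.05, 0 were lower and 0 higher, against 1.79% and 1.22% of all genes tested. The median log2 fold change was −0.0017, and that over all genes was 0.0063. Dgat2, which makes triglyceride, was at 197.4 and 237.8 CPM in controls against 220.4 and 463.2 CPM in knockouts, so knockout 2 alone was high (log2 fold change 0.65, SE 0.38). Elovl3 and Scd4 were below 2 CPM in all libraries. Hacd3, a dehydratase of elongation, was the next most abundant after Dgat2 at 195.9 TPM with a log2 fold change of 0.22 (SE 0.28).

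Markers of other cell types also differed between replicates. The 10 smooth muscle markers, among them Acta2 and Tagln, summed to 8955 and 3371 CPM in controls 1 and 2 and to 7685 and 11630 CPM in knockouts 1 and 2, and all 10 were higher in control 1 than control 2 and in knockout 2 than knockout 1. The 10 stromal markers, led by Col1a1 and Col3a1, summed to 13405 and 6906 CPM in controls against 7964 and 9144 CPM in knockouts. Collagens made up much of the sum, with Col1a1, Col1a2 and Col3a1 at 3306, 2908 and 3888 CPM in control 1. Of the 10, 8 were higher in control 1 than in control 2. Hoxa10 and Hoxa11 were lower, at 397.6 and 350.2 CPM in control 1 against 460.7 and 358.7 CPM in control 2. The 10 pan-epithelial markers, led by Cldn3 and Krt8, summed to 1698 and 2221 CPM in controls against 1880 and 1993 CPM in knockouts, and the 7 luminal markers tested, led by Msx1 and Calb1, to 598.8 and 1349.9 CPM in controls against 1111.5 and 1152.9 CPM in knockouts. The part of these differences in the replicate gaps of the sterol genes was not tested.

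Adipocyte markers differed between libraries in more than 1 order. Of the 12 markers 9 were tested, with a summed level of 107.2 and 117.2 CPM in controls 1 and 2 and of 101.9 and 128.6 CPM in knockouts 1 and 2. The most abundant per length were Lipe, the hormone-sensitive lipase gene, at 50.8 and 48.0 CPM in controls against 51.8 and 41.5 CPM in knockouts, and Cfd, the adipsin gene, at 0.144 and 2.42 CPM in controls against 0.0302 and 18.1 CPM in knockouts. Cfd was thus highest in knockout 2 and Lipe lowest there. Pck1 was also lowest in knockout 2, at 14.6 and 9.57 CPM in controls against 6.29 and 3.89 CPM in knockouts, and Plin4 was highest in knockout 1, at 8.49 and 5.24 CPM in controls against 11.6 and 9.87 CPM in knockouts. Adipoq and Cidec, an adipokine gene and a lipid droplet gene of fat cells, had 0 counts in control 1 and in knockout 1, and stood at 0.912 and 0.484 CPM in control 2 and at 5.17 and 4.49 CPM in knockout 2. In knockout 1 Plin1 was at 0 as well. Control 1, in which Sqle, Fdps and Srebf2 were highest, held no count of Adipoq or Cidec. It held 2 counts of Plin1 and 36 of Fabp4, and Pck1 was highest there. Knockout 2, the highest library of Scd1 and Dgat2, held the most counts of Adipoq and Cidec. The part of fat cells in the values of Sqle, Fdps, Srebf2, Scd1 and Dgat2 was not tested.

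Many markers of dividing cells, macrophages and glands had both knockouts below both controls, as Fdps did. Over all genes tested, both knockouts lay below both controls in 13.1% and above both in 12.2%. All 12 proliferation markers, led by Pcna and Mcm3, had both knockouts below both controls, with a median log2 fold change of −0.94, and summed to 889.6 and 587.6 CPM in controls against 408.0 and 373.5 CPM in knockouts. Of 9 macrophage markers, of which the most abundant were Lyz2 and C1qa, 7 had both knockouts below both controls, with a median of −0.61 and sums of 584.5 and 728.9 CPM in controls 1 and 2, then 408.1 and 461.2 CPM in knockouts 1 and 2. Of 11 gland markers, of which the most abundant were Fxyd4 and Spink1, 7 lay lower in both knockouts and 1 higher, with a median of −1.91, and Prss29 is on this list. Their sums were 327.1 and 569.0 CPM in controls 1 and 2, then 399.7 and 316.2 CPM in knockouts 1 and 2. The log2 fold change was below 0 in 8 of the 11 and above 0 in 3, Fxyd4 (0.041), Cxcl15 (0.67) and Aldh1a1 (0.72). The 7 endothelial markers, led by Cdh5 and Pecam1, had a median of −0.084 and groups that overlapped. Groups also overlapped in all stromal and luminal markers tested, with medians of −0.18 and 0.025. Of 10 pan-epithelial markers, 3 had both knockouts below both controls and 0 above, with a median of −0.061. All 10 smooth muscle markers had a log2 fold change above 0, with a median of 0.62, and 2 had both knockouts above both controls. Of 9 adipocyte markers 1 lay below and 1 above, with a median of 1.36. No marker list had a gene past the adjusted threshold in edgeR, and the part of these cells in the values of Fdps, Fdft1 and Dhcr7 was not tested.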

How the data were processed

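RNA of whole uterus was sequenced as paired ends of 150 bases. Per the submitters' processing notes, Trimmomatic, STAR and featureCounts were used with GRCm39. Not given in the sources used here are the versions, the annotation, the strand setting and the treatment of multi-mapped reads. The authors deposited raw counts for 57186 genes and TPM with symbols for 19991 genes with a total count of at least 51. Columns were matched by the names in the labels. Counts summed to 35149834 and 33843256 for controls 1 and 2, and to 31901278 and 29932153 for knockouts 1 and 2. A floor of 3 counts was 0.0855 to 0.107 CPM, and covers counting error only.

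The deposited counts were tested with edgeR 4.0.16 in R 4.3.3: quasi-likelihood F-test, group as the only term, TMM factors, filterByExpr (minimum count 10, minimum total 15), Benjamini-Hochberg over 20950 genes, threshold 0.05, two-sided. Standard errors are the log2 fold change over the root of F. Replicate differences use log2 CPM with a prior count of 2. No 2 libraries were near identical (lowest chi-square per degree of freedom 30.3). The code was tested on simulated data. Also tried were DESeq2 1.42.0, limma 3.58.1 with voom and on log2(TPM + 1), RLE factors, upper-quartile factors, 2 other filters, a replicate block and leaving out each library.

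The members and lists were chosen with earlier results of these data known. Values are given for 10 fixed members (Hmgcs1, Sqle, Insig1, Srebf1, Srebf2, Acly, Acaca, Fasn, Scd1 and Scd2), then up to 6 further members per enzyme branch and 2 of sensing and transport with the smallest p. From each other pathway list come up to 3 genes with the smallest p and the 2 of highest TPM. From each marker list come the 2 of highest TPM. Other genes with values, among them Idi1, Cyp51, Msmo1, Hsd17b7, Adipoq, Cidec, Plin1, Pck1 and Plin4, were chosen after their values were seen. Gbp2b and the genes overlapping members are named as the items counted. Some genes of the other sterol list are not reported here.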

Additional observations from a re-analysis of the deposited data

How the results depend on the processing

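No member was called in any of the alternatives, and the branch medians kept their sign in all of them except without control replicate 1. With 1 library left out, the sterol median ran from −0.49 to 0.060, the fatty acid median from −0.22 to 0.0064 and the sensing and transport median from −0.62 to 0.078. Without knockout replicate 1 the fatty acid median (−0.023) was below 0 but above the median over all genes (−0.039). The number of genes called over the whole table, 1 in edgeR, was 90 with DESeq2, 0 with limma-voom, 3 with limma on log2(TPM + 1), 54 with no low-count filter, and 16 to 49 with 1 library left out, where a group of 1 library is assumed to vary like the other. The causes were not tested. With the replicate number as a replicate block it was 32, with 0 members. Replicate numbers did not pair the samples: over all genes the deviations of same-numbered libraries had a correlation of −0.44. With the crossed pairing, added after seeing the data, 37 genes and 0 members were called. Some log2 fold changes near 0 turned below it. With upper-quartile factors these were Scap (−0.0091), Acsl3 (−0.021) and Mbtps1 (−0.0074), and with limma-voom Msmo1 (−0.0092), Scap (−0.00060) and Acsl3 (−0.028). With log2(TPM + 1) they were Msmo1 (−0.024), Scap (−0.057), Scd2 (−0.0084), Me1 (−0.0057), Acsl3 (−0.073), Acsl4 (−0.033) and Mbtps1 (−0.047). With no filter they were Scap (−0.00073) and Acsl3 (−0.0052), with the stricter filter Acsl3 (−0.0037), and with the replicate block Scap (−7.29e-05) and Acsl3 (−0.019). Leaving out 1 library turned the sign of 24 of the 39 members. Among sterol enzymes the range was −0.57 to 0.093 for Hmgcs1, −0.31 to 0.13 for Mvk, −0.51 to 2.11 for Pmvk, −1.38 to 0.49 for Idi1, −1.20 to 1.08 for Sqle, −0.64 to 0.026 for Lss, −1.25 to 0.12 for Cyp51, −0.045 to 0.66 for Tm7sf2, −0.82 to 0.72 for Msmo1, −0.40 to 0.023 for Nsdhl and −0.47 to 1.68 for Hsd17b7. Among sensing and transport genes it was −0.76 to 0.45 for Insig1, −0.13 to 0.068 for Srebf1, −0.13 to 0.13 for Scap and −0.62 to 0.29 for Stard4. Among fatty acid genes it was −0.39 to 0.34 for Acly, −0.37 to 0.89 for Scd1, −0.15 to 0.28 for Scd2, −0.19 to 0.050 for Elovl5, −0.64 to 0.28 for Elovl6, −0.28 to 0.27 for Fads1, −0.094 to 0.22 for Me1, −0.29 to 0.25 for Acsl3 and −0.31 to 0.36 for Acsl4. Of the other pathway genes named it was −0.049 to 0.085 for Mbtps1, −0.0048 to 0.52 for Abca1, −0.15 to 0.76 for Cyp27a1 and −0.054 to 0.57 for Hacd3. The 2 libraries per group limit the precision, and the lowest count of a member in a library was 97.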
